A study of Mus musculus with 2 samples.

Results

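Cadherins and protocadherins are the calcium-dependent adhesion proteins through which neighbouring cells bind each other, and 91 of their genes were followed in mouse limb RNA at embryonic day 12.5. Members were the protein-coding genes whose GENCODE symbol is Cdh followed by a number, without Cdh5, or starts with Pcdh. These 91 genes stood among 21474 protein-coding and 43346 Ensembl genes in the tables. They comprised 17 classical cadherins (5 of type I and 12 of type II), 5 other cadherins, 12 nonclustered protocadherins, and 14 Pcdha, 22 Pcdhb and 21 Pcdhg genes. Of the members, 60 lie on chromosome 18.

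The study sequenced total RNA from limbs of embryos of the B6NCrl strain, of mixed sex, with no mutation and no treatment in the labels. Its 1 group has 2 biological replicates, pooled from 88 embryos (replicate 1) and 68 embryos (replicate 2). Fore- and hindlimbs are not told apart in the labels, and whether the pools share litters is not stated. With 1 group there is no contrast between conditions, so levels are given as descriptions, as mean ± SD (n = 2) or as the value in each library. The only test compared the pair of libraries with each other. Libraries held 29810026 and 29938721 expected counts, and 1 count was worth about 0.0131 TPM (a level scaled by transcript length to a fixed sum per library) for the median member. The 7 limb mesenchyme markers were all detected, with summed levels of 1769 and 1761 TPM in replicates 1 and 2, and of 8 liver, kidney and gut markers 1 was detected. That was Afp, at 4.14 and 2.45 TPM; Alb had 0.77 and 0.49 TPM and Wt1 0.68 and 0.41 TPM, while Fabp2, Umod and Cdx2 were listed at 0 in both libraries. In a bulk sample, fewer cells of a type and less RNA per cell cannot be told apart.

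Classical cadherins hold cells together through extracellular cadherin repeats, and their cytoplasmic tails bind p120-catenin and β-catenin, which connects through α-catenin to actin. Type I and type II members differ in how their outermost repeats pair. Protocadherins lack that catenin-binding tail. The nonclustered ones are encoded by separate genes, of which δ1 and δ2 members share conserved cytoplasmic motifs. The clustered ones lie in 3 tandem arrays: each Pcdha or Pcdhg gene joins its own large first exon to constant exons shared by its array, whereas Pcdhb genes have no constant exons. In neurons, the clustered genes are known for giving single cells different surface identities. In the limb bud, Cdh2 and Cdh11 are known from mesenchyme, Cdh1 and Cdh3 from ectoderm, and Cdh15 from muscle precursors.

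Promoter sequences were available for 22 members outside the clusters, as 25 windows of 300 bases, 250 before and 50 after the start, from RefSeq on GRCm38.p6. The 3 printed here belong to the highest nonclustered protocadherin (Pcdh18, chr3:49757267-49757566, minus strand), the muscle cadherin (Cdh15, chr8:122848124-122848423, plus strand) and a type II cadherin under 1 TPM (Cdh9, chr15:16728665-16728964, plus strand). Capitals mark CG dinucleotides, and each is read 5′ to 3′ on the gene's strand.
Pcdh18: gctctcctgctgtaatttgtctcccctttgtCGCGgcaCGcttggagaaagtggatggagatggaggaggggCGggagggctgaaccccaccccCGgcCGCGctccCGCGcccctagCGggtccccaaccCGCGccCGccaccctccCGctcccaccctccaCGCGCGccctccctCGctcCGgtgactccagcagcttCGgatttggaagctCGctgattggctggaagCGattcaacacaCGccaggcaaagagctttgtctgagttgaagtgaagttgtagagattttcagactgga
Cdh15: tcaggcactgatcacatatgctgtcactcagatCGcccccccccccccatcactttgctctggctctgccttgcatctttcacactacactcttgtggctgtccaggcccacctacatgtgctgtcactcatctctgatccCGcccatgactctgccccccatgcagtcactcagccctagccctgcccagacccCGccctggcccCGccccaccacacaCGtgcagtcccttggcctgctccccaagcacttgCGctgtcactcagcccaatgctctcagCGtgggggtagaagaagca
Cdh9: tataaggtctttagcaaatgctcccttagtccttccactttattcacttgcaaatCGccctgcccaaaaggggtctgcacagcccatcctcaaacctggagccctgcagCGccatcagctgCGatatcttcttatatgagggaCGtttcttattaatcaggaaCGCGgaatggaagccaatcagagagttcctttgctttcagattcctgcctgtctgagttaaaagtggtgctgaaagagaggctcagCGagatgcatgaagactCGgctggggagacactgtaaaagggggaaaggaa

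The Pcdh18 window held 23 CG dinucleotides and was 63.0% G or C, the Cdh15 window held 7 and was 61.3%, and the Cdh9 window held 8 and was 48.7%. The median member promoter was 60.3% G or C with 14 CG dinucleotides, against 52.7% and 7 over all 32851 promoters in the table. Among members, the 10 windows of nonclustered protocadherins had a median of 18 CG dinucleotides and the 13 of classical cadherins a median of 12. The classical windows came from 11 genes, with several from Cdh7, and included neither Cdh11 nor any type I gene other than Cdh15. The nonclustered windows came from 9 genes, with overlapping windows of Pcdh9. The motif CGCT, searched on both strands, contains a CG, and it was present in 24 of 25 member windows (96.0%) and in 61.8% of all windows. It occurred 7 times in the Pcdh18 window and 2 times in each of the Cdh15 and Cdh9 windows. The E-box CANNTG, which reads alike on both strands, was present in 11 of 13 windows of classical cadherins and in 3 of 10 of nonclustered protocadherins, against 72.3% of all windows. The Cdh15 window held 4 such matches and the Pcdh18 window none. These are matches of letters, and no binding was measured. The starts of these windows need not be those of the GENCODE genes. The Cdh15 window lies wholly inside its GENCODE gene (122847966 to 122867397), as do those of Cdh12, Cdh18 and Pcdh15.

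Of the 91 members, 55 had at least 1 TPM in both libraries, which is called detected here. That is 60.4%, near the background of 59.2% among all protein-coding genes, so the count over all members is not particular to them. The classes differed in their counts. All 5 type I cadherins and all 21 Pcdhg genes were detected, as were 11 of 12 nonclustered protocadherins. Of the 12 type II cadherins 5 were detected, of the 22 Pcdhb genes 11, of the 5 other cadherins 1 and of the 14 Pcdha genes 1. Cdh22, Pcdhb5 and Pcdhb9 passed 1 TPM in 1 library and missed it in the other.

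Members summed to 811 TPM in replicate 1 and 807 TPM in replicate 2, or 0.214% (95% exact interval 0.212 to 0.216) and 0.213% (0.212 to 0.215) of all counts. All counts are those of every row, including 97 spike-in rows, and Ensembl genes held 28832310 and 29249374 of them. Classical cadherins summed to 385 ± 0.361 TPM, nonclustered protocadherins to 227 ± 5.89 TPM, Pcdhg genes to 159 ± 8.38 TPM, Pcdhb genes to 25.6 ± 0.233 TPM, other cadherins to 8.01 ± 0.948 TPM and Pcdha genes to 3.82 ± 0.170 TPM (SD, n = 2 each). The order of these 6 sums was the same in both libraries, and no neighbours overlapped. Few genes carried them: Cdh11 and Pcdh18 together held 44.6% and 44.7% of the member TPM in replicates 1 and 2, and the highest 10 members held 77.4% and 77.8%.

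**Figure D1:**
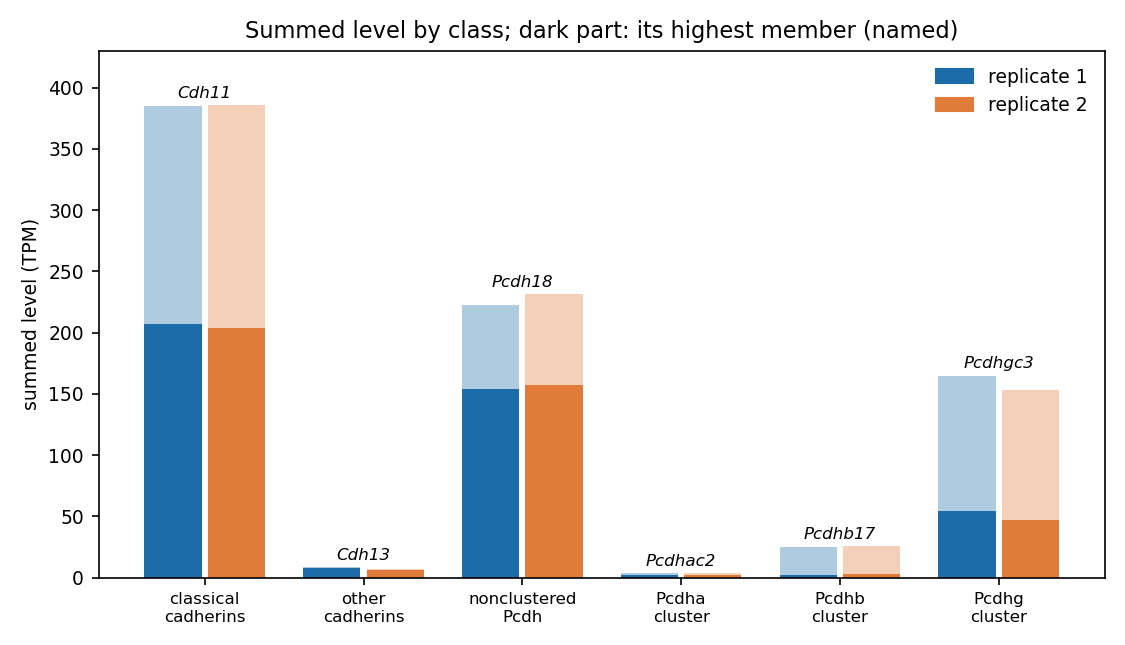
Summed level of each class in TPM (bars, from 0) in replicate 1 (blue) and replicate 2 (orange); the dark part is the highest member of the class, named above it. Cdh11 makes up 53.9% and 52.8% of the classical cadherins and Pcdh18 makes up 69.2% and 68.1% of the nonclustered protocadherins, whereas Pcdhb17 makes up 9.58% and 10.9% of the Pcdhb genes.

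As log2 ratios of the sums, with the SD over the pair of libraries, classical cadherins stood 0.76 ± 0.04 above nonclustered protocadherins, which in turn stood 0.51 ± 0.11 above the Pcdhg genes. Pcdhg genes stood 2.63 ± 0.09 above Pcdhb and 5.38 ± 0.14 above Pcdha genes. Type II cadherins stood 0.65 ± 0.06 above type I, and δ2 protocadherins stood 1.95 ± 0.08 above δ1. Without the highest member of each class, type II stood at -1.63 relative to type I and nonclustered protocadherins at -0.60 relative to Pcdhg, so both directions turned, and δ2 over δ1 came to 0.18. The other 3 contrasts kept their direction, at 1.34 for classical over nonclustered, 2.23 for Pcdhg over Pcdhb and 6.04 for Pcdhg over Pcdha.

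Among classical cadherins, Cdh11 (OB-cadherin, a type II cadherin of mesenchyme; chromosome 8, 102632095 to 102785642) was the highest, at 207 and 203 TPM in replicates 1 and 2. It ranked 720th among the protein-coding genes and was the highest member in both libraries. Its only listed transcript, Cdh11-201, is protein-coding, and the gene had 15998 and 15801 expected counts.

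Type I cadherins followed. Cdh3 (P-cadherin, of ectoderm; chromosome 8, 106510891 to 106557297) stood at 56.3 and 60.3 TPM. Cdh2 (N-cadherin; chromosome 18, 16588877 to 16809246) stood at 52.2 and 53.6 TPM. The ranges of these neighbours did not overlap, although Cdh3 stood only 0.14 ± 0.04 above Cdh2 on the log2 scale. Cdh11 stood 1.96 ± 0.05 above Cdh2. Cdh15 (M-cadherin; chromosome 8, 122847966 to 122867397) stood at 17.3 and 19.9 TPM, lower in replicate 1. Cdh1 (E-cadherin; chromosome 8, 106603351 to 106670246) stood at 12.6 and 11.4 TPM, 2.28 ± 0.17 on the log2 scale under its neighbour on the chromosome, Cdh3. Cdh4 (R-cadherin) was the lowest type I member, at 8.64 and 7.86 TPM.

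The marker lists of the cells in which these cadherins are known were read beside them. All 5 ectoderm markers were detected and higher in replicate 1, with sums of 341 and 318 TPM in replicates 1 and 2. Cdh1 was likewise higher in replicate 1, and Cdh3 was higher in replicate 2. Of the 7 muscle markers 5 were detected and 6 were higher in replicate 1, with sums of 503 and 486 TPM; Myog stood at 97.9 and 91.2 TPM and Myod1 at 39.9 and 44.0 TPM, while Cdh15 was higher in replicate 2. Cartilage markers were higher in replicate 1 for 10 of 10 genes, with sums of 1128 and 969 TPM. Neuron markers were higher in replicate 2 for 7 of 9 genes, with sums of 54.4 and 73.3 TPM. The part of these differences in the member values was not tested.

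The type II class ran between 0.10 and 207 TPM. After Cdh11 came Cdh24, which binds catenins like other classical cadherins, at 12.4 and 11.5 TPM, a range that overlapped that of Cdh1. Cdh6 (K-cadherin, of kidney and neural crest) stood at 9.99 and 9.04 TPM, Cdh8 at 2.65 and 2.71 TPM and Cdh10 at 2.06 and 2.64 TPM, the last pair belonging to cadherins studied mainly in neurons. Cdh22 lay on both sides of the detection threshold, at 1.54 and 0.77 TPM. Cdh7, Cdh19, Cdh9, Cdh12, Cdh18 and Cdh20 stayed below 1 TPM in both libraries. Cdh19, known from Schwann cell precursors, had 0.60 and 0.69 TPM, beside Schwann cell markers that summed to 47.6 and 51.4 TPM with 6 of 7 detected. Cdh20 was the lowest, at 0.10 and 0.11 TPM, from 7 and 8 counts.

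Among the other cadherins, Cdh13 (T-cadherin, which is held in the membrane by a lipid anchor and has no cytoplasmic tail) was the only detected gene, at 7.62 and 6.72 TPM. Its coding transcript accounted for 3.11 and 2.88 TPM of that, the rest being listed for retained-intron and processed transcripts. By expected counts the coding transcript held 215 and 201 of the gene's 299 and 279 in replicates 1 and 2. Cdh23, which with Pcdh15 forms the tip links of hair cells in the inner ear, stood at 0.37 and 0.28 TPM, of which coding transcripts held 0.03 and 0.00. By expected counts the coding transcript Cdh23-203 held 6.46 of 11 in replicate 1 and 0 of 14 in replicate 2. Cdh26 had 0.38 and 0.18 TPM from 8 and 5 counts. Cdh17, of intestine, had 0.29 and 0.16 TPM. Cdh16, of kidney, had 1 count in replicate 1 and was listed at 0 in replicate 2, under the floor of 3 counts.

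**Figure D2:**
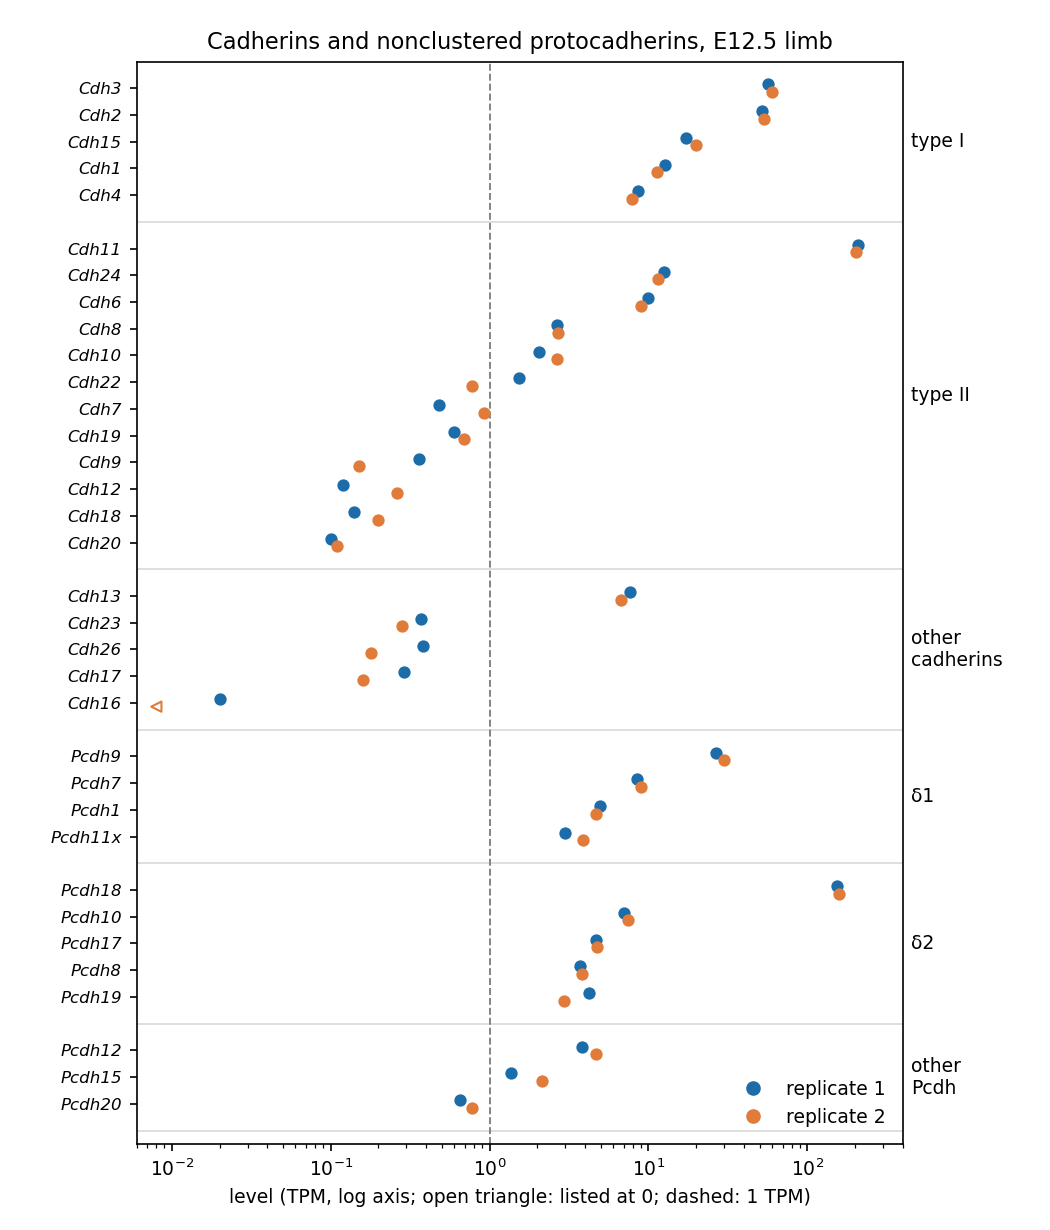
Level in TPM (log axis) of each cadherin and nonclustered protocadherin in replicate 1 (blue) and replicate 2 (orange), by class and in falling order of the mean; the dashed line is 1 TPM and the open triangle marks a gene listed at 0. All type I cadherins and all δ1 and δ2 protocadherins lie right of the line, while Cdh7, Cdh19, Cdh9, Cdh12, Cdh18 and Cdh20 lie left of it.

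Nonclustered protocadherins were led by the δ2 member Pcdh18 (chromosome 3, 49743296 to 49757325), at 154 and 157 TPM in replicates 1 and 2. It was the second-highest member and ranked 992nd among protein-coding genes. Its protein-coding transcripts held 152.6 and 154.7 TPM, most of it in Pcdh18-201 at 129 and 134 TPM. Cdh11 stood 0.40 ± 0.04 above Pcdh18 on the log2 scale. The other δ2 members were far lower. Pcdh10, which recruits the WAVE actin regulator, stood at 7.06 and 7.39 TPM. Pcdh17 stood at 4.66 and 4.72 TPM and Pcdh8 (paraxial protocadherin, known from somites) at 3.71 and 3.80 TPM. Pcdh19, whose human gene is mutated in an inherited epilepsy, stood at 4.24 and 2.95 TPM. Of the Pcdh19 level, 57.7% and 44.6% was listed for a transcript of 335 bases annotated for nonsense-mediated decay, and protein-coding transcripts held 1.79 and 1.64 TPM. By expected counts that short transcript held only 10.8 and 5.85 of the gene's 326 and 302 in replicates 1 and 2. Its share is thus large by TPM and small by counts.

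The δ1 members were more even. Pcdh9 (chromosome 14, 93013410 to 93890679) led at 26.8 and 29.8 TPM, followed by Pcdh7 at 8.51 and 8.95 TPM, Pcdh1 at 4.93 and 4.67 TPM and Pcdh11x, on chromosome X, at 2.98 and 3.89 TPM. Pcdh18 stood 2.46 ± 0.09 above Pcdh9 on the log2 scale. Of the remaining 3, Pcdh12 (an endothelial protocadherin) had 3.83 and 4.67 TPM, beside 7 endothelial markers that were all detected and summed to 174 and 168 TPM. Pcdh15 had 1.37 and 2.13 TPM, of which protein-coding transcripts held 0.32 and 0.23. Pcdh20 was the lowest of the class, at 0.65 and 0.77 TPM, and the only one not detected.

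Counted by protein-coding transcripts alone, an alternative chosen after seeing the data, 52 members reached 1 TPM in both libraries. The 3 detected genes that missed it were Pcdh15, Pcdhga9 and Pcdhgc5. In 8 members more than 50% of the TPM was listed for noncoding transcripts in both libraries, and 7 of these were detected: Cdh13, Pcdh11x, Pcdh12, Pcdh15, Pcdhga12, Pcdhgb4 and Pcdhgc5. The matching shares over all protein-coding genes were not counted, so these counts are not shown to be particular to the members. Shares of TPM weigh short transcripts more per count. They can therefore differ from shares of expected counts, as for Cdh13, Cdh23 and Pcdh19 above. Shares of expected counts were not totalled for the other members.

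The Pcdha array spans 36930184 to 37187661 on chromosome 18. Its 14 genes summed to 3.70 and 3.94 TPM in replicates 1 and 2. Pcdhac2, one of the C-type genes at the far end of the array, was the only one detected, at 2.39 and 1.88 TPM, and held 64.6% and 47.7% of the sum. The remaining 13 genes summed to 1.31 and 2.06 TPM, and each lay between 0 and 0.43 TPM. Pcdha9 was the next highest by mean, at 0.36 and 0.29 TPM, and Pcdha4 was the fourth, at 0.20 and 0.29 TPM. Gene symbol Pcdha11 is given to 2 genes by the annotation used for names: ENSMUSG00000007440 had 0.14 and 0.18 TPM, and ENSMUSG00000102206 had 0.17 and 0.43 TPM. Pcdha1 was listed at 0 in both libraries, and Pcdha2, Pcdha6 and Pcdhac1 at 0 in replicate 1, with 11, 4 and 9 counts in replicate 2.

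The Pcdhb array follows, from 37264938 to 37524479. Levels were low and even, and all but 1 of its genes lay between 0.10 and 2.81 TPM. Pcdhb17 (2.44 and 2.81 TPM), Pcdhb22 (2.41 and 2.81 TPM), Pcdhb7 (2.40 and 2.47 TPM) and Pcdhb20 (2.09 and 2.42 TPM) were the highest, each overlapping the next in range. Pcdhb1, at the start of the array, was listed at 0 in replicate 1 and had 1 count in replicate 2. Just above 1 TPM stood Pcdhb4 at 1.02 and 1.10 TPM and Pcdhb3 at 1.03 and 1.24 TPM. On both sides of it stood Pcdhb5 at 0.94 and 1.05 TPM and Pcdhb9 at 1.02 and 0.69 TPM, and just below it Pcdhb11 at 0.77 and 0.59 TPM. By position, in stretches drawn after the values were seen, 5 of 8 genes from Pcdhb1 to Pcdhb8 and 6 of 7 from Pcdhb16 to Pcdhb22 were detected, and 0 of 7 from Pcdhb9 to Pcdhb15. These stretches summed to 9.30 and 9.35 TPM, to 12.3 and 13.3 TPM, and to 3.89 and 3.19 TPM in replicates 1 and 2. Across the 22 genes, array order and level had a Spearman rho of 0.36 in each library, a description over genes that share a library.

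**Figure D3:**
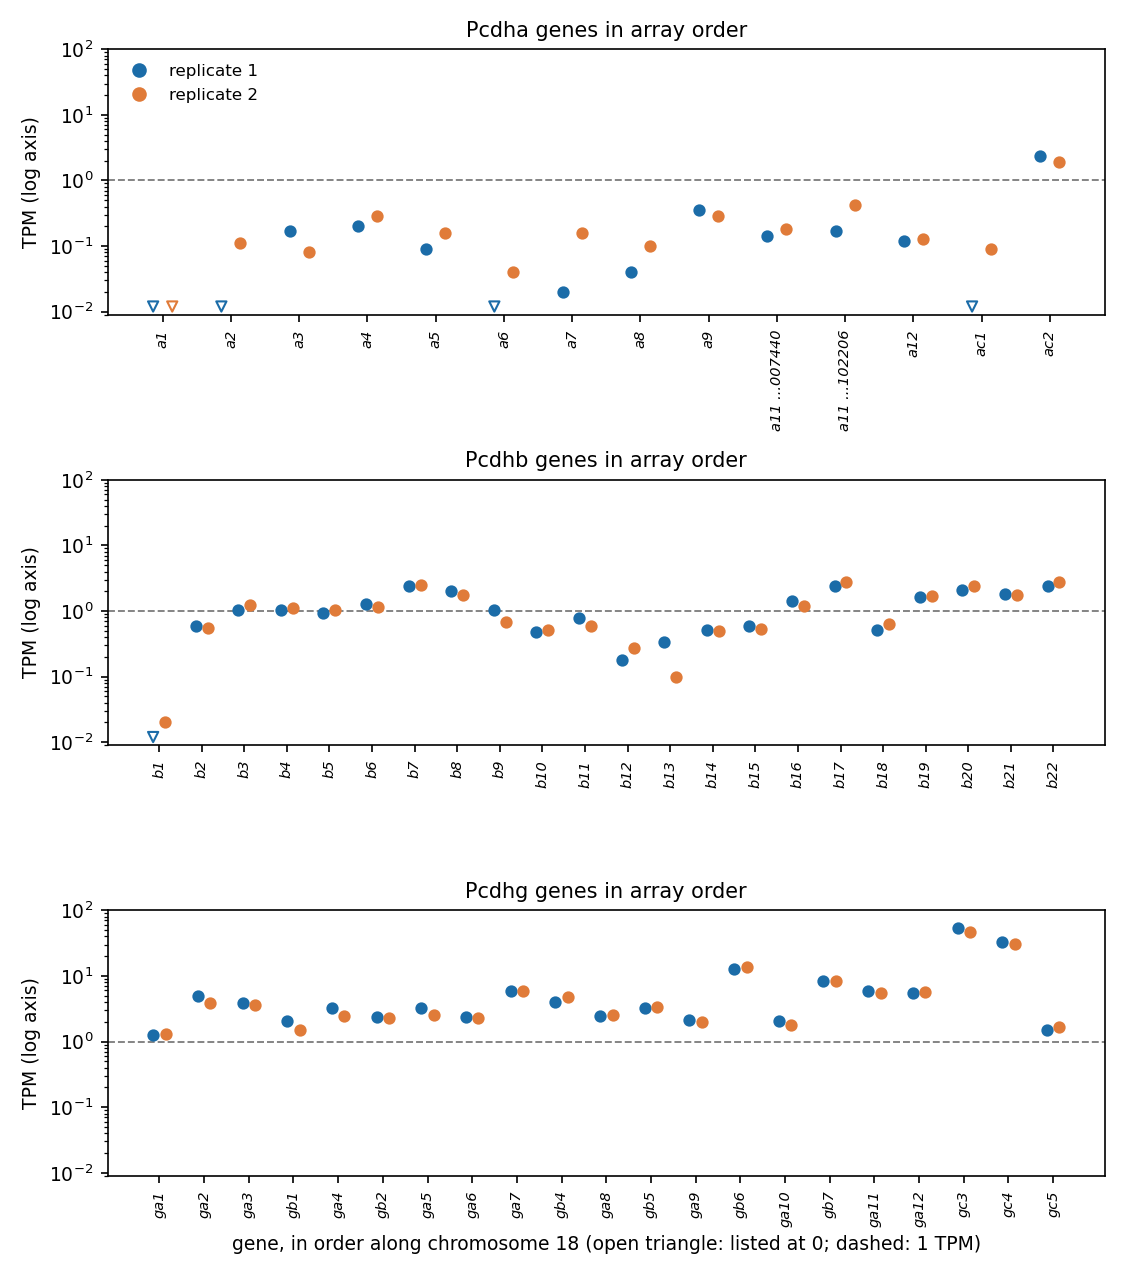
Level in TPM (log axis) of each clustered protocadherin in replicate 1 (blue) and replicate 2 (orange), with genes in their order along chromosome 18; the dashed line is 1 TPM and open triangles mark genes listed at 0. Pcdhac2 is the only Pcdha gene above the line, Pcdhb genes lie around it, and all 21 Pcdhg genes lie above it, with Pcdhgc3 and Pcdhgc4 highest.

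The Pcdhg array spans 37661793 to 37841873. All 21 genes were detected, between 1.26 and 54.7 TPM. The C-type gene Pcdhgc3 (37806364 to 37841873) was the highest, at 54.7 and 47.4 TPM in replicates 1 and 2, and ranked 5th among the members by mean, in a range that overlapped that of Cdh2. Pcdhgc4, known in mouse for neuronal survival, was listed at 32.8 and 30.7 TPM. Pcdhgb6 stood at 12.9 and 13.8 TPM and Pcdhgb7 at 8.40 and 8.35 TPM. The third C-type gene, Pcdhgc5, was near the lower end, at 1.51 and 1.65 TPM, and Pcdhga1, first in the array, was the lowest, at 1.26 and 1.29 TPM. The other Pcdhga and Pcdhgb genes lay between 1.51 and 5.96 TPM. By type, the 3 Pcdhgc genes summed to 89.0 and 79.7 TPM, the 12 Pcdhga genes to 42.9 and 39.4 TPM and the 6 Pcdhgb genes to 33.0 and 34.0 TPM. Over the 18 Pcdhga and Pcdhgb genes, array order and level had a Spearman rho of 0.44 in replicate 1 and 0.48 in replicate 2, again as a description.

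How the shared exons entered these values was measured on the transcripts. In the annotation, Pcdha transcripts share up to 2860 constant bases and Pcdhg transcripts up to 2119. Over the genes, the median share of 100-base windows also present in another gene, on either strand, was 55.8% for Pcdha, 43.7% for Pcdhg and 0.21% for Pcdhb, and 0 for classical cadherins of both types. The deposited SD of the quantifier's assignment had a median of 28.6% of the expected count for Pcdha genes, 5.01% for Pcdhg and 0.34% for Pcdhb. The split of a sum among Pcdha genes is therefore the least certain of these values. Pcdha genes also had the fewest counts, with a median of 11.9, against 281.8 for Pcdhg and 68.25 for Pcdhb. Pcdhac2, with 47.75% of windows shared, had an SD of 3.53%. The parts of shared sequence and of few counts in these SDs were not tested. Counts moved between members of an array leave their summed count as it is. The summed TPM can change, because TPM is scaled by transcript length.

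Pcdhgc4 was the clearest case. Of its level, 80.8% and 72.2% in replicates 1 and 2 (26.5 and 22.2 TPM) was listed for a transcript of 2272 bases, Pcdhgc4-203, of which 2119 are the constant exons of the array and 153 are its own. For that transcript 93.1% of windows were shared with other members. The full-length Pcdhgc4-201, with a first exon of its own, had 1.86 and 1.16 TPM. By contrast, the full-length Pcdhgc3-201 had 49.0 and 43.3 TPM, 89.6% and 91.4% of its gene. Without Pcdhgc4-203, an alternative added after seeing the data, the Pcdhg genes summed to 134.7 TPM and stood 2.39 above Pcdhb on the log2 scale. That alternative drops the transcript's 1080 and 910 expected counts in replicates 1 and 2. It does not move them to other Pcdhg transcripts, so it may leave out reads of the array.

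**Figure D4:**
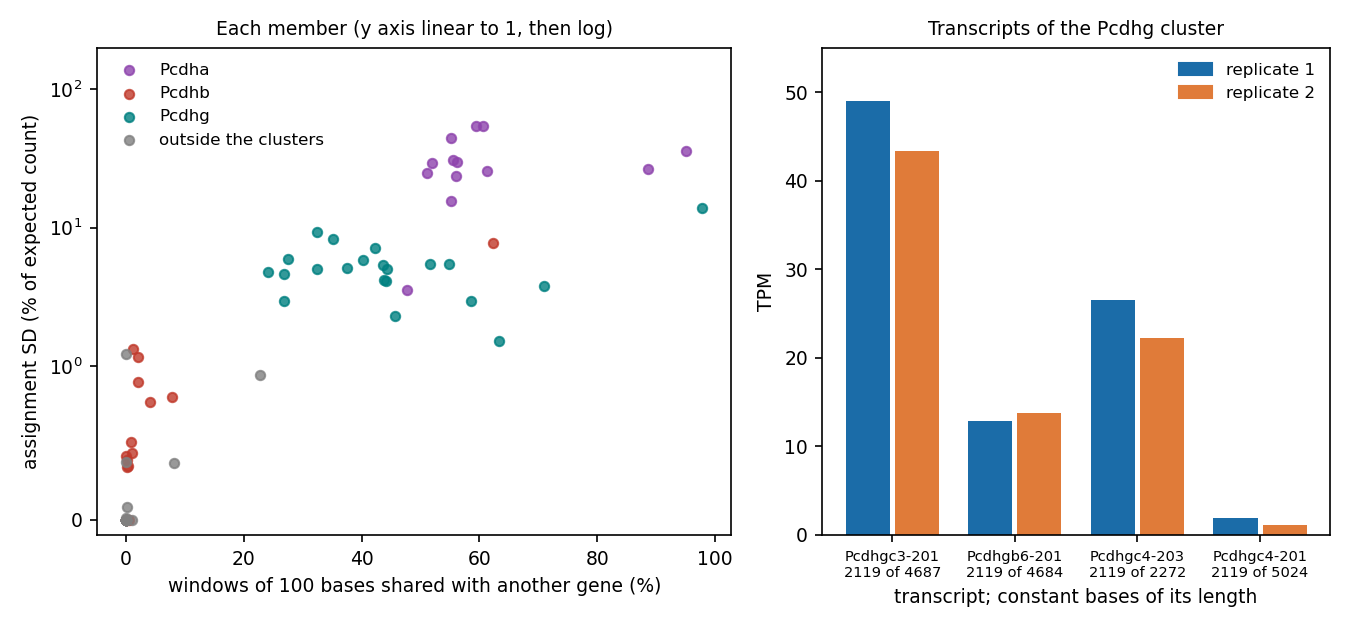
Left, each member's share of 100-base windows found in another gene (x axis, percent) against the deposited assignment SD as percent of the expected count (y axis, mean of both libraries, linear to 1 and log above); right, TPM of 4 Pcdhg transcripts in replicate 1 (blue) and replicate 2 (orange), with their constant bases. Pcdha genes reach the highest assignment SDs, and Pcdhgc4-203, at 26.5 and 22.2 TPM, stands far above the full-length Pcdhgc4-201.

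The sources used here name no strand setting, and genes on the minus strand lie over several members. BC037039, an antisense gene over the start of Pcdhgc3 (37805718 to 37807922), had 6.58 and 7.43 TPM in replicates 1 and 2, and 74.9% of Pcdhgc3-201 windows were shared with some other gene on either strand, against 44.1% with other members alone. Gm26672, on the minus strand across Pcdhga10 to Pcdhga12 (37746559 to 37768242), had 2.56 and 3.81 TPM, and 97.9% of Pcdhga10 windows were shared, against 43.6% with members alone, with an assignment SD of 13.9% of the count. In the same span the shares were 71.0% against 43.5% for Pcdhga11-201 and 58.5% against 43.9% for Pcdhgb7-201. Under the antisense gene Gm37165 (37714279 to 37726121; 0.60 and 0.53 TPM), they were 53.1% against 43.7% for Pcdhga7-201 and 51.6% against 44.7% for Pcdhga8-201. In the Pcdhb array, Pcdhb12 shared 62.3% of windows, against 0.545% with members alone. Without strand, reads of these genes and their partners cannot be told apart.

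Between the libraries, an exact conditional binomial test of expected counts, two-sided and adjusted by Benjamini-Hochberg over the 18580 Ensembl genes with at least 10 counts, was combined with a fold of at least 2. It called 317 genes (1.71%), and 3 of the 86 members tested. It compares these libraries and covers counting error alone. Pcdhb13 had 23 counts in replicate 1 and 7 in replicate 2, a fold of 3.33 (95% exact interval 1.38 to 9.20; exact binomial adjusted p = 0.0329). Pcdha7 had 2 and 16 counts, a ratio of 0.127 (95% exact interval 0.0141 to 0.539; exact binomial adjusted p = 0.0133). Pcdha2 had 0 and 11 counts, and the 95% exact interval of its ratio ran from 0 to 0.404 (exact binomial adjusted p = 0.0103). The assignment SD in replicate 2 was 24.8% of the count for Pcdha2 and 22.8% for Pcdha7. In replicate 1 it was 85.0% of the count for Pcdha7, and 1.9 counts for Pcdha2, which was listed at 0. The test does not cover these SDs, and Pcdha2 was not called on posterior-mean counts. All 3 genes were under 1 TPM. By edgeR's exact test, which takes a common spread from both libraries, 0 of 86 members and 240 of 18580 genes (1.29%) were called. That spread came from the same pair of libraries that was then tested. The 0 calls are therefore no independent check of the binomial calls. Unadjusted p was under 0.05 for 7 members by edgeR's exact test and for 19 by the binomial test. The share of all genes under that unadjusted limit was not counted, so these counts are not a result about the members.

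**Figure D5:**
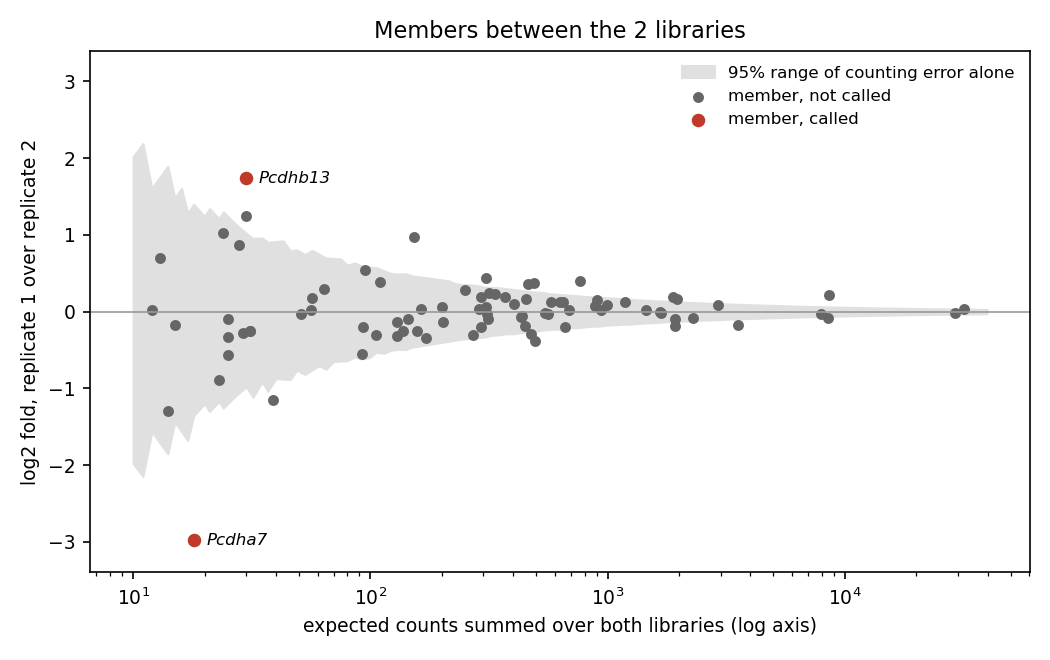
Log2 fold of replicate 1 over replicate 2 (y axis) against expected counts summed over both libraries (x axis, log) for members with at least 10 counts and counts in both libraries; the grey band is the 95% range of counting error alone and red points are called. The called Pcdhb13 and Pcdha7 are at the left, among the members of fewest counts, and the members of most counts lie close to 0.

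With no limit on the fold, the binomial test called 2975 genes (16.0%) and 12 members. Among the abundant ones were Pcdhgc3, at 4579 counts in replicate 1 and 4009 in replicate 2 and a log2 fold of 0.21 (exact binomial adjusted p = 5.84e-10), Pcdh9 at -0.17, Cdh15 at -0.19, Cdh4 at 0.19 and Cdh3 at -0.09. Cdh22 was the member nearest to the fold limit from below, with 101 and 52 counts and a log2 fold of 0.98 (exact binomial adjusted p = 0.000978). Of the 85 members tested with counts in both libraries, 42 were higher in replicate 1 (49.4%), against 52.3% of all genes tested. By class these were 9 of 17 classical cadherins, 3 of 4 other cadherins, 2 of 12 nonclustered protocadherins, 3 of 10 Pcdha, 9 of 21 Pcdhb and 16 of 21 Pcdhg genes. Median log2 folds were 0.09 for Pcdhg and -0.05 for nonclustered protocadherins, against 0.01 over all genes tested; these class counts were not tested. For the 20 members at 5 TPM or above, the median absolute log2 difference between libraries was 0.09, against 0.08 for protein-coding genes of that level. For the 35 members under 1 TPM it was 0.33, against 0.45.

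The cytoplasmic partners of these proteins were read from lists chosen with earlier results of these data known. Of 15 catenins and junction proteins found in the tables, 14 were detected. Ctnnb1 (β-catenin) stood at 519 and 518 TPM in replicates 1 and 2, Ctnna1 (αE-catenin) at 135 and 137 TPM, Afdn (afadin) at 56.1 and 64.5 TPM and Nectin2 at 60.9 and 54.1 TPM. The p120 family members Ctnnd1, Arvcf, Pkp4 and Ctnnd2 averaged 38.4, 32.4, 15.0 and 1.02 TPM, and Jup (plakoglobin) 38.8 TPM. The neuronal Ctnna2 averaged 1.94 TPM, and Ctnna3 was the lowest at 0.12 and 0.20 TPM. Vcl (vinculin), Ctnnal1, Nectin3 and Nectin1 averaged 40.5, 33.7, 27.1 and 4.97 TPM.

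All 14 genes known to act on the protocadherin arrays were detected. Trim28, a corepressor of KRAB zinc finger proteins, stood at 442 and 422 TPM. Ctcf, which binds the array promoters and enhancers, stood at 121 and 133 TPM. Of the cohesin genes, Smc1a averaged 102 ± 2.18 TPM, Smc3 69.7 ± 0.990 TPM and Rad21 57.7 ± 2.05 TPM (SD, n = 2 each). The cohesin genes Stag1 and Stag2 averaged 53.0 and 48.4 TPM, the cohesin release and loading factors Wapl and Nipbl 30.1 and 19.2 TPM, and Wiz 33.2 TPM. Dnmt1 averaged 104.1 TPM, Setdb1 54.5 TPM, Smchd1, which represses clustered protocadherins in mouse, 54.7 TPM, and Dnmt3b, a methyltransferase for their promoters, was the lowest at 12.9 and 14.3 TPM. Of 13 protocadherin partners, which include the WAVE complex bound by δ2 members and the focal adhesion kinases bound by Pcdha and Pcdhg tails, 12 were detected. Cyfip1 led at 99.7 and 97.5 TPM, followed by Nckap1 at 73.9 and 69.1 TPM and Ptk2 at 64.0 and 63.7 TPM, and Ptk2b was the lowest at 0.66 and 0.29 TPM. All 7 genes of cadherin cleavage were detected, led by the γ-secretase parts Psenen at 114 and 120 TPM and Ncstn at 79.6 and 73.1 TPM and by the sheddase Adam10 at 57.8 and 53.1 TPM, with Psen2 lowest at 8.57 and 9.03 TPM.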

How the data were processed

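Total RNA longer than 200 nt, from 10 ng per library, was sequenced in 2 biological replicates of 1 group. The expected counts deposited by the authors are estimated counts that need not be whole, per the file headers. The deposited TPM and FPKM values are scaled by transcript length, and the deposited percent values give each transcript's share of its gene, per the file headers. Build mm10 and annotation GENCODE M4 are named in text files that the authors deposited. The sources used here name no aligner, quantifier or strand setting (not given). Names and coordinates came from GENCODE M21 on the same assembly.

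Members and gene lists were chosen with earlier results of these data known. All members are accounted for; those given in full were the highest 4 and the lowest of each class, those beside 1 TPM and those called between libraries. Levels of 1 group carry no test. edgeR's quasi-likelihood test, the planned kind for counts, has no residual degrees of freedom here, so expected counts were rounded and compared by an exact binomial test, scaled by the counts of Ensembl genes. The test was checked on simulated counts with counting error alone, with changes planted only in genes of many counts. That check does not cover spread between pools or calls at few counts. Whether the pools share litters is not stated, so p-values measure only these libraries. Shared sequence was read from M21 transcripts in windows of 100 bases (264 member transcripts, 249 of unchanged length). Intervals and floors cover counting error only. Alternatives covered thresholds, units, scalings and each library left out. Python 3.11.15, scipy 1.17.1, R 4.3.3, edgeR 4.0.16 and DESeq2 1.42.0 were used.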

Additional observations from a re-analysis of the deposited data

Results flagged for a closer look

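In the span of the protocadherin arrays, 28 genes outside the members were listed, and 9 of them had more than 3 counts in each library; they were picked out because they have signal although they are no members; some also entered the test between libraries, and BC037039, Gm26672 and Gm37165 are named above beside the members they overlap. As means over both libraries, Taf7, a subunit of the general transcription factor TFIID, stood at 19.3 TPM and Slc25a2 at 0.355 TPM. The antisense genes BC037039, Gm37165 and Gm29994 stood at 7.0, 0.565 and 0.365 TPM. The noncoding transcripts Gm26672, 3222401L13Rik and Gm10544 stood at 3.19, 1.44 and 1.29 TPM. Pcdhgb8, annotated as a polymorphic pseudogene within the Pcdhg array, stood at 1.03 TPM, with 1.13 and 0.94 TPM in replicates 1 and 2. Its level lies under those of its neighbours Pcdhga11 (5.71 TPM) and Pcdhga12 (5.54 TPM).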

How the results depend on the processing

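No paired analysis was possible because the study has 1 group, so no samples of different groups share a number. Each library left alone gave 10 to 11 detected classical cadherins, 12 detected Pcdhb genes in either library, and unchanged counts for the other classes; the sums and log2 ratios of the libraries alone are the values that make up each mean and its SD. With 2 libraries each mean lies within 1 SD of both by construction, so this says nothing of stability. The order of the 6 class sums was the same with posterior-mean TPM.

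Detected counts depend on the threshold. At a TPM of 0.5, 18 Pcdhb genes were detected. At a TPM of 5, 4 nonclustered protocadherins, 7 Pcdhg and 0 Pcdha or Pcdhb genes were. With FPKM in place of TPM, 7 Pcdhb genes were. With at least 10 counts in both libraries, 3 other cadherins, 6 Pcdha and 20 Pcdhb genes passed.

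Sums in other units have other sizes. CPM, with no length scaling, gave 955.0 for classical, 10.8 for other cadherins, 686.9 for nonclustered, 12.5 for Pcdha, 63.9 for Pcdhb and 407.4 for Pcdhg genes, which puts Pcdha above the other cadherins. TPM rescaled over protein-coding genes gave, in that order, 465.6, 9.69, 274.4, 4.62, 31.0 and 192.3. Posterior-mean TPM gave 376.0 for classical, 8.96 for other cadherins and 4.12 for Pcdha genes. Protein-coding transcripts alone gave 379.8 for classical, 3.35 for other cadherins, 212.4 for nonclustered, 3.51 for Pcdha and 138.5 TPM for Pcdhg genes. Without Pcdhgc4-203, whose counts were dropped and not moved to other transcripts, the Pcdhg sum was 134.7 TPM.

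Log2 ratios on CPM were 0.48 for classical over nonclustered, 2.34 for δ2 over δ1, 5.02 for Pcdhg over Pcdha, 2.35 for Pcdhb over Pcdha and 0.75 for nonclustered over Pcdhg. On posterior-mean TPM, Pcdhg over Pcdha was 5.24 and Pcdhb over Pcdha 2.64. Without the highest member of each class, 2 directions turned: type II over type I to -1.63 and nonclustered over Pcdhg to -0.60. The others were 1.34 for classical over nonclustered, 0.18 for δ2 over δ1, 2.23 for Pcdhg over Pcdhb, 6.04 for Pcdhg over Pcdha and 3.81 for Pcdhb over Pcdha. Without Pcdhgc4-203 the ratios were 2.39 for Pcdhg over Pcdhb, 5.14 for Pcdhg over Pcdha and 0.75 for nonclustered over Pcdhg. The median member level, as log2 of TPM plus the pseudocount, was 0.99 with 0.1 and 1.53 with a pseudocount of 1.

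Between libraries, a minimum of 100 counts left 75 genes (0.55%) and 0 of 61 members called by the binomial test, since it removes the members called. No fold limit gave 2975 genes and 12 members. edgeR's exact test called 0 members. TMM and DESeq2 scaling each called Pcdha2, Pcdha7 and Pcdhb13 of 86 members, against 1.7% and 1.73% of all genes tested. Posterior-mean counts called 2 of 87 members and lost Pcdha2, against 1.35% of all genes tested. No filter on counts called 4 of 90 members, adding Pcdhac1, against 1.23% of all genes tested. Depth limits most the members of few counts, such as Pcdhb13, whose fold had a 95% exact interval from 1.38 to 9.20.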

Other observations

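Cdh5 (VE-cadherin, of endothelium), left out of the members by their definition, stood at 15.5 and 13.4 TPM in replicates 1 and 2. By mean level that would place it between Cdh15 and Pcdhgb6.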
